A study of Mus musculus with 8 samples.

Results

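The transcripts of 9 haematopoietic cytokine receptor genes, Kit, Flt3, Osmr, Ghr, Csf3r, Il7r, Csf2rb, Epor and Csf1r, were followed in sorted mouse blood stem cells. The genes were listed by name as receptors, with earlier results of these data known. All 9 were found by symbol among the 24421 gene symbols of the deposited tables. All 9 also passed the filter on low counts, which left 15917 genes for testing, although Il7r passed with only 1 to 39 reads per library.

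RNA was sequenced from the long-term stem cells (LT-HSCs) that maintain blood, taken from mice aged 10 to 12 months. Per the labels, these bone marrow cells lacked lineage markers, carried CD117 and Sca1, and were high for CD150 and low for CD48. A green fluorescent reporter of Vwf, the gene of von Willebrand factor, split them into a megakaryocyte-biased fraction (Vwf+) and the remaining cells (Vwf-). Each fraction came from wild-type mice (WT) and from mice heterozygous for Dnmt3a (Dnmt3a+/-), the gene of a de novo DNA methyltransferase, and the Vwf reporter was read in every group. The labels do not describe the altered Dnmt3a allele. Each of the 4 groups held 2 libraries, each made from RNA of 3 to 4 pooled mice, and in every group replicate 1 was male and replicate 2 female. The spread within a group is therefore that between a male and a female pool, and p-values measure the spread between pools, not between single mice. CD117 is the protein product of Kit, so the sort itself selected cells with surface Kit in all groups.

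Cytokine receptors carry signals from the marrow to the inside of a blood cell. Kit, Flt3 and Csf1r are receptor tyrosine kinases, which phosphorylate themselves when their ligand joins a pair of receptors. The other members have no kinase of their own: they bind Janus kinases (JAKs), which phosphorylate STAT transcription factors. In the stem cell compartment, Kit serves stem cell maintenance, Flt3 marks multipotent progenitors with lymphoid potential, and Il7r, Csf3r, Epor and Csf1r are associated with the lymphoid, neutrophil, red cell and macrophage lineages.

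The upstream sequences of 3 members are shown because Flt3 and Ghr were among the receptors that changed between fractions and Kit was the most abundant. They run 5' to 3' on the gene's strand, end where the first annotated exon begins, and have the CG dinucleotide, the main target of DNMT3A, in capitals. They come from RefSeq (GRCm38.p6). Methylation was not measured in the libraries described here. In order, they are 250 bases at chr5:147400490-147400739 (- strand), 110 bases at chr15:3583493-3583602 (- strand) and 179 bases at chr5:75574737-75574915 (+ strand).
Flt3: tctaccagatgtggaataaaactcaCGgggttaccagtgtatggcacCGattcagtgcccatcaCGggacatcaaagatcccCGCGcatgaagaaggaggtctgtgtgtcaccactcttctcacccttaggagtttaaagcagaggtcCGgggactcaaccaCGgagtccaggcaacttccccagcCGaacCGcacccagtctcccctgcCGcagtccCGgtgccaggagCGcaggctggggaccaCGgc
Ghr: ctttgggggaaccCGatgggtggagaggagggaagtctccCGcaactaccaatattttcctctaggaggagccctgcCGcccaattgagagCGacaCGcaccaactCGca
Kit: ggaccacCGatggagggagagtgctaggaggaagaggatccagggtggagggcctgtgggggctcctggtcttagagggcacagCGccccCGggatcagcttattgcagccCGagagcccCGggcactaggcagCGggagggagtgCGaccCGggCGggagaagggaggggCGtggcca

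The printed Flt3 stretch holds 13 CG, that of Ghr 6 and that of Kit 10. RefSeq windows of 300 bases, from 250 before to 50 after a transcript start, were found for 7 of the 9 members, in 9 windows. Csf2rb and Csf1r had no window and were not searched for CG or motifs. Over all 32851 such windows the median was 7 CG, with quartiles of 3 and 20. Flt3 had 18 CG, Osmr 22, Kit 20 and 21 in its 2 windows, and Ghr 23 in the upstream window and 8 in the other. Csf3r had 9, Epor 7 and Il7r 1. The receptor that fell in Vwf+ cells (Flt3) and those that rose (Osmr and Ghr) thus all had at least 1 window above the median. The printed Flt3 stretch lies within the antisense gene Gm26597, which shares no exonic base with Flt3. The motifs were searched on both strands, and no motif contains another. TTCNNNGAA, the core of STAT sites, occurred in Il7r alone among the 7 members with a window and in 8.3% of all windows. AGATAA, recognised by Gata1 and its relatives, occurred in Epor alone among these 7 and in 11.2% of all windows. TGTGGT, recognised by Runx1 and its relatives, occurred in Il7r and Epor (16.8% of all windows). GAGGAAGT, recognised by Ets-family factors such as PU.1, occurred in none of the 7 members searched and in 3.2% of all windows. All matches among the members thus lay in the Il7r and Epor windows. The last 50 bases of each of these windows occurred in 0 transcripts of its gene in the GENCODE M21 annotation. These RefSeq starts are therefore not matched there. The Il7r and Osmr windows lie inside the annotated genes.

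In the GENCODE M21 annotation of GRCm38 (mm10), 4 of the 9 genes lie on chromosome 15: Osmr (6813577 to 6874969, - strand), Ghr (3317760 to 3583492, - strand), Il7r (9505788 to 9530176, - strand) and Csf2rb (78325752 to 78353847, + strand). Kit (75574916 to 75656722, + strand) and Flt3 (147330741 to 147400489, - strand) lie on chromosome 5. Csf3r lies on chromosome 4 (126024550 to 126044440, + strand), Epor on chromosome 9 (21958897 to 21963506, - strand) and Csf1r on chromosome 18 (61100598 to 61132149, + strand). All are protein-coding genes, and values are sums over their exons. Whether reads were counted by strand is not given in the sources used here. Csf1r shares 873 of its 5774 exonic bases with Hmgxb3, a gene on the opposite strand, so reads there may belong to either. Of the 50-base windows of Csf2rb transcripts, 12.3% also occur in its neighbouring copy Csf2rb2, so the split of reads between these genes is uncertain.

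Total counts ran from 21809278 to 39402418 per library. Levels of one gene across libraries are given as CPM, the usual unit of reads of a gene relative to the total reads of its library, here after TMM scaling between libraries. Vwf was 3.48 ± 0.14 higher on the log2 scale (SE) in Vwf+ cells. Dnmt3a stood at 175 to 251 CPM in WT and at 179 to 361 CPM in Dnmt3a+/- libraries, which does not check the genotype labels because the allele is not described. All 14 LT-HSC markers listed had counts in all 8 libraries, with a summed level of 3370 to 3740 CPM in Vwf+ and 2440 to 2790 CPM in Vwf- libraries. Counts of the nuclear RNA Malat1 took 0.974% to 1.97% of a male and 0.446% to 0.585% of a female library. Markers of B cells summed to 13.9 to 20.5 CPM and those of T and NK cells to 10.4 to 16.3 CPM in Vwf+ and 20.1 to 21.5 CPM in Vwf- libraries, with several defining T-cell genes (Cd3e, Cd3d, Cd3g) at 0 in some libraries. Between fractions, 0 of 9 tested B cell markers passed, 1 of 4 tested T and NK cell markers fell (Nkg7, by 1.69 on the log2 scale), 1 of 8 tested mast cell, basophil and eosinophil markers fell (Cpa3, which fell by 2.24) and 0 of 13 monocyte and macrophage markers passed. The mast cell gene Mcpt4 was at 0 in all 8 libraries.

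**Figure D1:**
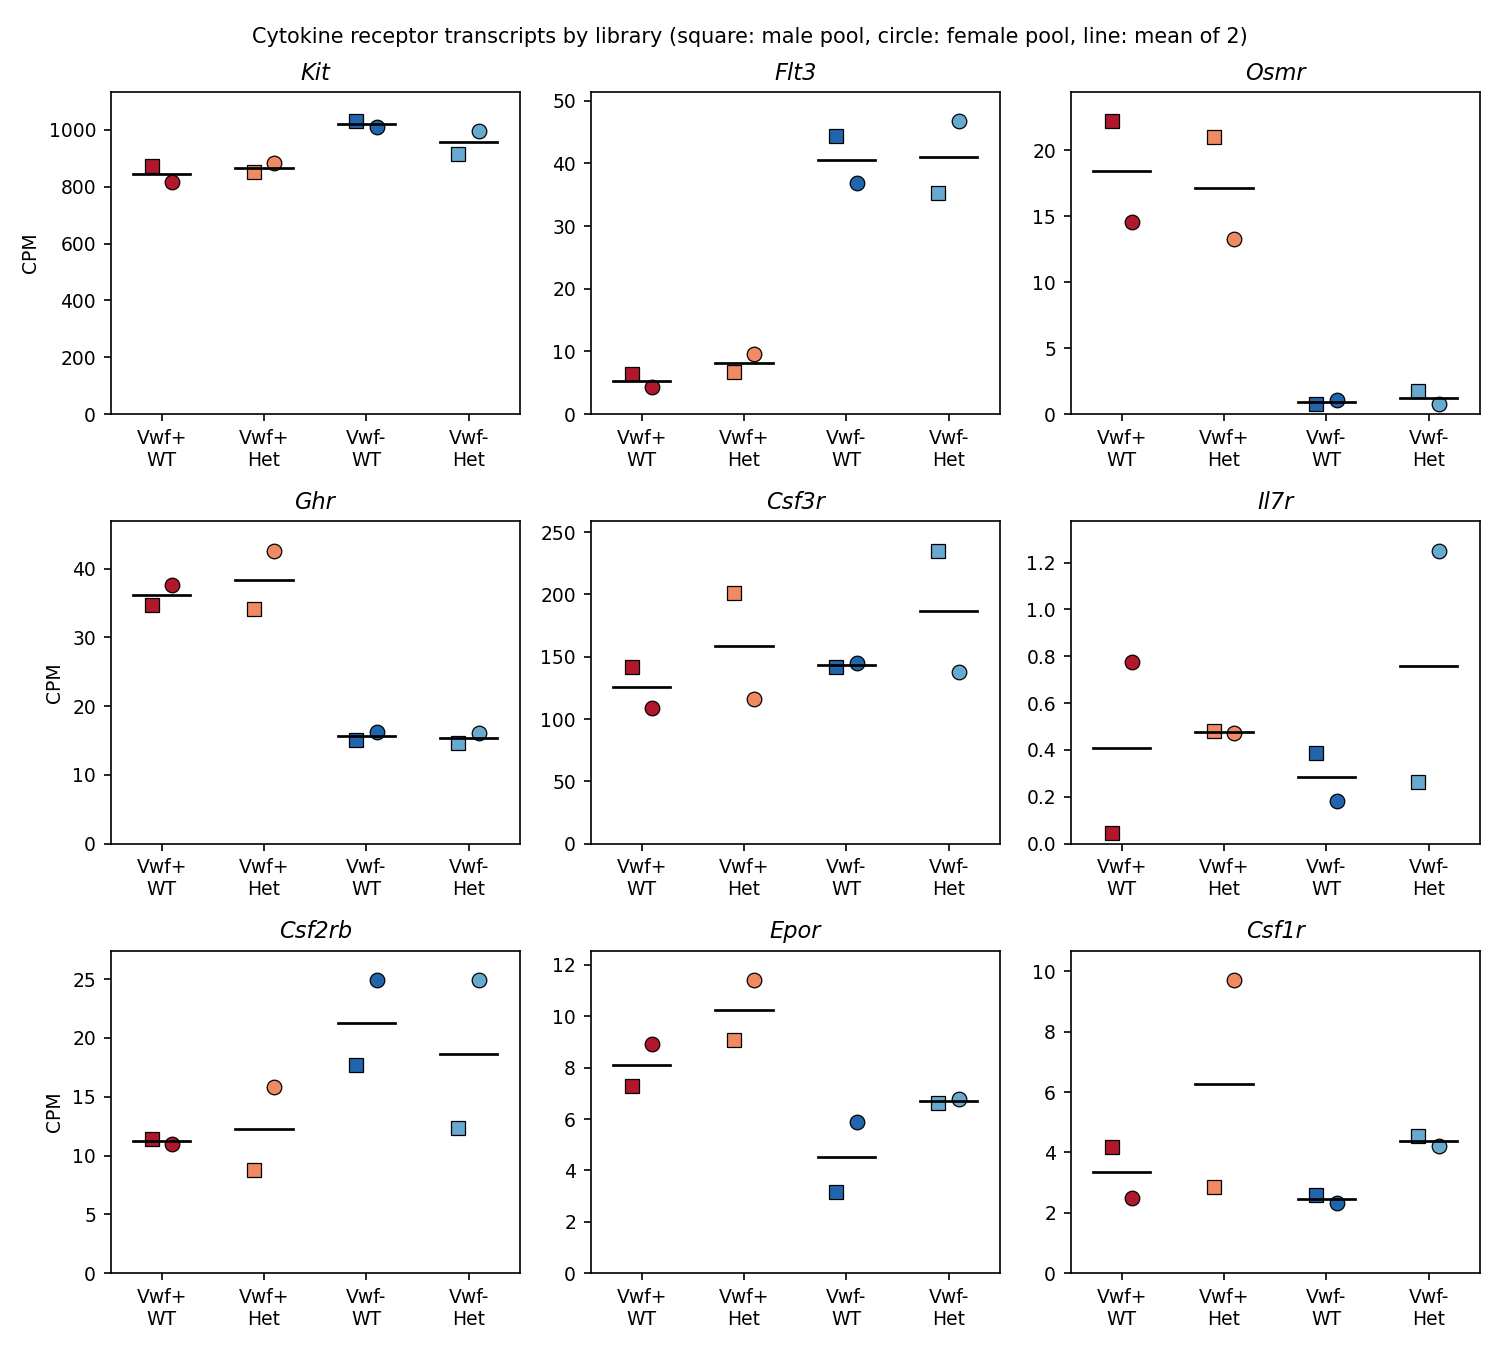
Level of each of the 9 receptors in CPM (vertical axes, linear and from 0, with a scale of its own for each gene) in the 4 groups, where Het means Dnmt3a+/-. Squares are male pools, circles female pools and lines the mean of 2 libraries; Flt3 sits between 4.35 and 9.59 CPM in Vwf+ and between 35.2 and 46.7 CPM in Vwf- libraries, and Osmr and Ghr show the opposite order.

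The receptors were first ranked within a group by TPM, which divides counts by gene length and so allows levels of different genes to be compared. In Vwf+ WT cells the order of mean TPM was Kit (322), Csf3r (61.9), Ghr (15.7), Epor (8.66), Osmr (7.62), Csf2rb (4.63), Flt3 (2.93), Csf1r (1.73) and Il7r (0.234). In Vwf- WT cells it was Kit (424), Csf3r (76.5), Flt3 (23.9), Csf2rb (9.71), Ghr (7.51), Epor (5.39), Csf1r (1.36), Osmr (0.424) and Il7r (0.189). Kit and Csf3r thus were the most abundant in both fractions, whereas Flt3 moved from rank 7 in Vwf+ to rank 3 in Vwf- cells. Kit made up 74% of the summed TPM of the 9 receptors in Vwf+ and 74.9% in Vwf- cells.

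Some neighbours in this order could not be separated by their 2 libraries. In Vwf+ WT cells, Epor and Osmr overlapped in TPM, as did Flt3 and Csf1r. In Vwf- WT cells, Csf2rb overlapped with Ghr and Ghr with Epor. The Dnmt3a+/- groups had the same order as WT in the Vwf+ fraction, from Kit at 362 to Il7r at 0.321 TPM, but there Osmr overlapped with Csf2rb, Csf2rb with Flt3 and Flt3 with Csf1r. In Vwf- Dnmt3a+/- cells the order differed from that of Vwf- WT cells only in that Epor (7.74 TPM) stood above Ghr (7.21 TPM), and Csf2rb overlapped with Epor and Osmr with Il7r.

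The comparison of Vwf+ with Vwf- cells asked how receptor transcripts differ between megakaryocyte-biased and other LT-HSCs. Averaged over genotype, Flt3 fell and Osmr and Ghr rose in Vwf+ cells, while the other 6 receptors did not pass the threshold. These 3 of 9 calls stand beside 866 of 15917 tested genes, or 5.44%, that passed at an adjusted p under 0.05 (3.76% higher and 1.68% lower). Because the receptors were listed with earlier results known, this share is a description. The CPM of Kit, Flt3, Osmr, Ghr and Epor did not overlap between the 4 Vwf+ and the 4 Vwf- libraries, which was true of 13% of all tested genes. The median log2 difference of the 9 receptors was -0.06 and that of all tested genes -0.01, but leaving out 1 library moved the former from -0.21 (without the female Vwf- WT library) to 0.46 (without the female Vwf- Dnmt3a+/- library), so it has no settled sign. In these bulk samples, a lower level through fewer cells that carry a transcript and one through less of it in each cell cannot be told apart.

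Among the receptor tyrosine kinases, Flt3, the receptor for Flt3 ligand, read 6.34 CPM in the male and 4.35 CPM in the female Vwf+ WT pool, and 6.80 and 9.59 CPM in the pools of Vwf+ heterozygotes. Among the Vwf- pools, the WT pair had 44.3 and 36.8 CPM and the heterozygous pair 35.2 and 46.7 CPM. The lowest Vwf- library lay above the highest Vwf+ library. Flt3 had a log2 difference of -2.62 ± 0.19 (SE) between fractions, a level 6.15-fold lower in Vwf+ cells (edgeR adjusted p = 6.9e-05). The difference was -2.92 ± 0.28 in WT (edgeR adjusted p = 0.00094) and -2.32 ± 0.27 in Dnmt3a+/- cells (edgeR adjusted p = 0.0028). Other markers of multipotent and lymphoid-primed progenitors moved with it. Their summed level over 7 genes, without the receptors, was 280 to 308 CPM in Vwf+ and 416 to 511 CPM in Vwf- libraries. Of these 7 genes, 4 fell (among them Cd34, Satb1 and Cd27, by 1.44, 0.87 and 0.88 on the log2 scale) and 0 rose, at an edgeR adjusted p of 0.041 or less. Among all tested genes 1.68% fell and 3.76% rose. None of the 7 was at 0 in any library. The T and NK cell markers, whose summed levels also did not overlap between fractions, had a median log2 difference of -1.34 over the 4 tested. The part of these markers in the Flt3 difference was not tested.

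In the male and female Vwf+ pools Kit, the receptor for stem cell factor, was measured at 871 and 815 CPM for WT and 850 and 883 CPM for Dnmt3a+/-. For Vwf- pools the values were 1030 and 1010 CPM (WT) and 914 and 997 CPM (Dnmt3a+/-). All Vwf+ libraries lay below all Vwf- libraries, but by a narrow margin. The log2 difference of -0.21 ± 0.12 did not pass (edgeR adjusted p = 0.46). Across all 8 libraries the highest Kit level was 1.27-fold the lowest, the narrowest range among the 9 receptors.

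The Vwf+ level of Csf1r, the receptor of macrophage colony-stimulating factor, was 4.18 (male) and 2.50 CPM (female) with the WT genotype, and 2.85 and 9.70 CPM with the heterozygous one. Its Vwf- level was 2.58 and 2.31 CPM in the WT pair and 4.54 and 4.21 CPM in the heterozygous pair. The fractions overlapped, and the female Vwf+ Dnmt3a+/- library was the highest of all. The log2 difference of 0.49 ± 0.38 did not pass (edgeR adjusted p = 0.62), and it was -0.08 without that library. The same library had the highest summed level of the 13 other monocyte and macrophage markers, 62.6 CPM, against 26.3 to 46.7 CPM in the other 7. It was also highest for the mast cell, basophil and eosinophil markers, with 53.2 CPM against 3.70 to 40.8 CPM. Of the 13 monocyte and macrophage markers, Ms4a7 was at 0 in 2 libraries and the others, among them Adgre1 and C1qa, had counts in all 8. The part of such cells in the Csf1r levels was not tested. Hmgxb3, named here after its values were seen because it overlaps Csf1r, stood at 66.3 to 91 CPM, far above Csf1r, with a log2 difference of -0.22 ± 0.11 (edgeR adjusted p = 0.36).

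Osmr encodes the ligand-specific chain of the oncostatin M receptor, which pairs with gp130, the product of Il6st. It read 22.2 CPM in the male and 14.6 CPM in the female Vwf+ WT pool, and 21 and 13.3 CPM in the pools of Vwf+ heterozygotes. Among the Vwf- pools, the WT pair had 0.778 and 1.11 CPM and the heterozygous pair 1.72 and 0.798 CPM. These Vwf- values rest on 22 to 72 reads. The fractions were far apart in every library. Osmr rose by 4.01 ± 0.32 on the log2 scale in Vwf+ cells, or 16.1-fold (edgeR adjusted p = 9.8e-05), the largest difference in size among the 9 receptors. The rise was 4.27 ± 0.45 in WT (edgeR adjusted p = 0.0019) and 3.75 ± 0.44 in Dnmt3a+/- cells (edgeR adjusted p = 0.0028). Il6st itself rose by 0.58 ± 0.13 (edgeR adjusted p = 0.024), from 63 to 86.6 CPM in Vwf- libraries to 95.2 to 118 CPM in Vwf+ libraries. Lifr, which joins gp130 in the receptor for leukaemia inhibitory factor and was named after its values were seen, lay at 0.142 to 1.68 CPM and did not pass (1.15 ± 0.71, edgeR adjusted p = 0.49).

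Ghr encodes the growth hormone receptor, which signals as a pair of identical chains. In the male and female Vwf+ pools it was measured at 34.7 and 37.6 CPM for WT and 34.2 and 42.6 CPM for Dnmt3a+/-. For Vwf- pools the values were 15.1 and 16.3 CPM (WT) and 14.7 and 16.1 CPM (Dnmt3a+/-). All Vwf+ libraries lay above all Vwf- libraries, and both sexes and genotypes were alike in this order. Ghr rose by 1.26 ± 0.14 on the log2 scale in Vwf+ cells, or 2.39-fold (edgeR adjusted p = 0.00059). The rise was 1.2 ± 0.19 in WT (edgeR adjusted p = 0.014) and 1.31 ± 0.19 in Dnmt3a+/- cells (edgeR adjusted p = 0.01). Within a genotype this call was less secure. In WT it was lost by limma on TPM (0.98, adjusted p = 0.089) and without any 1 of the 4 WT libraries (edgeR adjusted p from 0.055 to 0.11). In Dnmt3a+/- cells it was lost when the 4 libraries were fitted alone (edgeR adjusted p = 0.11) and without the female Vwf+ library (1.15, edgeR adjusted p = 0.081).

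Osmr and Ghr rose together with some genes listed as endothelial and stromal, megakaryocyte or LT-HSC markers. The summed level of 14 endothelial and stromal markers was 506 to 625 CPM in Vwf+ and 398 to 433 CPM in Vwf- libraries, and 4 of the 14 rose (Cldn5, Kdr, Cxcl12 and Cdh5, by 5.46, 2.61, 1.43 and 2.80 on the log2 scale) and 0 fell. Tie1 (199 to 323 CPM), Tek (54.8 to 107 CPM) and Pecam1 (45.4 to 64.9 CPM) made up much of this sum, while Cdh5 was at most 3.55 CPM. Within this list Col1a1 was at most 2.86 CPM, and Col3a1 was at most 2.32 CPM and at 0 in 1 library. Megakaryocyte markers, Vwf among them, summed to 1880 to 2310 CPM in Vwf+ and 465 to 597 CPM in Vwf- libraries, and 5 of 11 tested rose (Vwf, Itgb3, Selp, Gp1bb and Pf4). The sort was made on a reporter of Vwf, which alone read 1030 to 1410 CPM in Vwf+ and 98.9 to 116 CPM in Vwf- libraries. Gp6 was at 0 in 2 libraries. Their part in the Osmr and Ghr differences was not tested. Of the 14 LT-HSC markers 7 rose (among them Slamf1, Ctnnal1, Hoxb5, Mllt3, Fgd5 and Mecom) and 0 fell, and Slamf1 encodes CD150, which was used in the sort. Beside the calls in these marker lists, 3.76% of all tested genes rose and 1.68% fell.

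To set these receptors side by side within a library, the ratio of Flt3 to Osmr TPM was 0.378 to 0.952 in the 4 Vwf+ libraries and 27.1 to 77.3 in the 4 Vwf- libraries. The ratio of Flt3 to Ghr TPM was 0.143 to 0.278 in Vwf+ and 2.80 to 3.61 in Vwf- libraries. Flt3 was thus the lower of each pair in every Vwf+ library and the higher in every Vwf- library.

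Csf3r and Epor also act as pairs of identical chains. The Vwf+ level of Csf3r, the receptor for granulocyte colony-stimulating factor, was 142 (male) and 109 CPM (female) with the WT genotype, and 201 and 116 CPM with the heterozygous one. Its Vwf- level was 142 and 145 CPM in the WT pair and 235 and 138 CPM in the heterozygous pair. The male library was the higher in 3 of the 4 groups, and the fractions overlapped (log2 difference -0.22 ± 0.20, edgeR adjusted p = 0.7). The 11 other neutrophil markers summed to 144 to 250 CPM in Vwf+ and 77.2 to 133 CPM in Vwf- libraries. Of these, 2 rose (Elane by 1.89 and Prtn3 by 0.88 on the log2 scale) and 0 fell, beside 3.76% and 1.68% of all tested genes. However, 6 of the 11 estimates lay below 0 and the list median was -0.31. Prtn3 and Mpo, at up to 132 and 105 CPM, made up much of the summed level, while Lcn2 was at 0 in 1 library. Their part in the Csf3r levels was not tested.

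Epor, the erythropoietin receptor, read 7.29 CPM in the male and 8.91 CPM in the female Vwf+ WT pool, and 9.08 and 11.4 CPM in the pools of Vwf+ heterozygotes. Among the Vwf- pools, the WT pair had 3.15 and 5.88 CPM and the heterozygous pair 6.64 and 6.77 CPM. The fractions did not overlap, and within each sex and genotype the Vwf+ library was the higher. The log2 difference of 0.73 ± 0.24 did not pass (edgeR adjusted p = 0.14), but it passed when replicate number, which is also sex, was fitted as a block (0.73, edgeR adjusted p = 0.025). The erythroid markers summed to 490 to 711 CPM without Epor, with 0 of 7 tested past the threshold. The globin genes Hba-a1, Hba-a2, Hbb-bs and Hbb-bt were listed at 0 in all 8 libraries.

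Csf2rb and Il7r work with partner chains. In the male and female Vwf+ pools Csf2rb, the signalling chain shared by the receptors for interleukin 3, interleukin 5 and GM-CSF, was measured at 11.4 and 11 CPM for WT and 8.77 and 15.8 CPM for Dnmt3a+/-. For Vwf- pools the values were 17.7 and 24.9 CPM (WT) and 12.3 and 24.9 CPM (Dnmt3a+/-). The Vwf+ library was the lower in all 4 pairs of the same sex and genotype, although the fractions overlapped. The log2 difference of -0.76 ± 0.26 did not pass (edgeR adjusted p = 0.15). It passed with the replicate block (-0.73, edgeR adjusted p = 0.0042), and in WT cells the block also gave a call (-0.88, edgeR adjusted p = 0.022, against -0.93 and 0.33 without it). In WT, edgeR without the count filter (-0.93, adjusted p = 0.018) and with the 4 WT libraries alone (-0.93, adjusted p = 0.046) gave a call too, and DESeq2 did not (adjusted p = 0.14). Averaged over genotype, DESeq2 (adjusted p = 0.041), edgeR without the count filter (adjusted p = 0.0019) and edgeR without the male Vwf- Dnmt3a+/- library (-0.97, adjusted p = 0.014) also gave a call.

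Csf2rb2 and the ligand-binding chains Csf2ra and Il3ra showed smaller differences between fractions than Csf2rb, none of which passed. Csf2rb2, a mouse copy of this chain for interleukin 3 alone, stood at 9.95 to 17.8 CPM in Vwf+ and 10 to 12.6 CPM in Vwf- libraries (log2 difference 0.15 ± 0.20, edgeR adjusted p = 0.8). Csf2ra and Il3ra, the ligand-binding chains for GM-CSF and interleukin 3, were named after their values were seen. They differed by 0.05 ± 0.18 and 0.12 ± 0.15 (edgeR adjusted p = 0.95 and 0.78). Il5ra, the ligand-binding chain for interleukin 5, also named after its values were seen, was close to the limit of detection. It lay at 0 to 0.511 CPM, with no reads in 1 library, and its difference is not given. The difference between Csf2rb and these other chains was not tested.

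Il7r, the interleukin 7 receptor chain, was close to the limit of detection. The male and female Vwf+ pools gave 0.045 and 0.775 CPM (WT) and 0.482 and 0.471 CPM (Dnmt3a+/-). The Vwf- pools gave 0.389 and 0.180 CPM (WT) and 0.263 and 1.25 CPM (Dnmt3a+/-). The lowest value was a single read, under the 3 counts taken as the floor, and the groups overlapped. The log2 difference of -0.06 ± 0.96 (edgeR adjusted p = 0.99) has an error too wide to give a direction. Its partner Il2rg, the common gamma chain, named after its values were seen, lay at 62.8 to 87.8 CPM in all libraries (0.13 ± 0.13, edgeR adjusted p = 0.73).

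**Figure D2:**
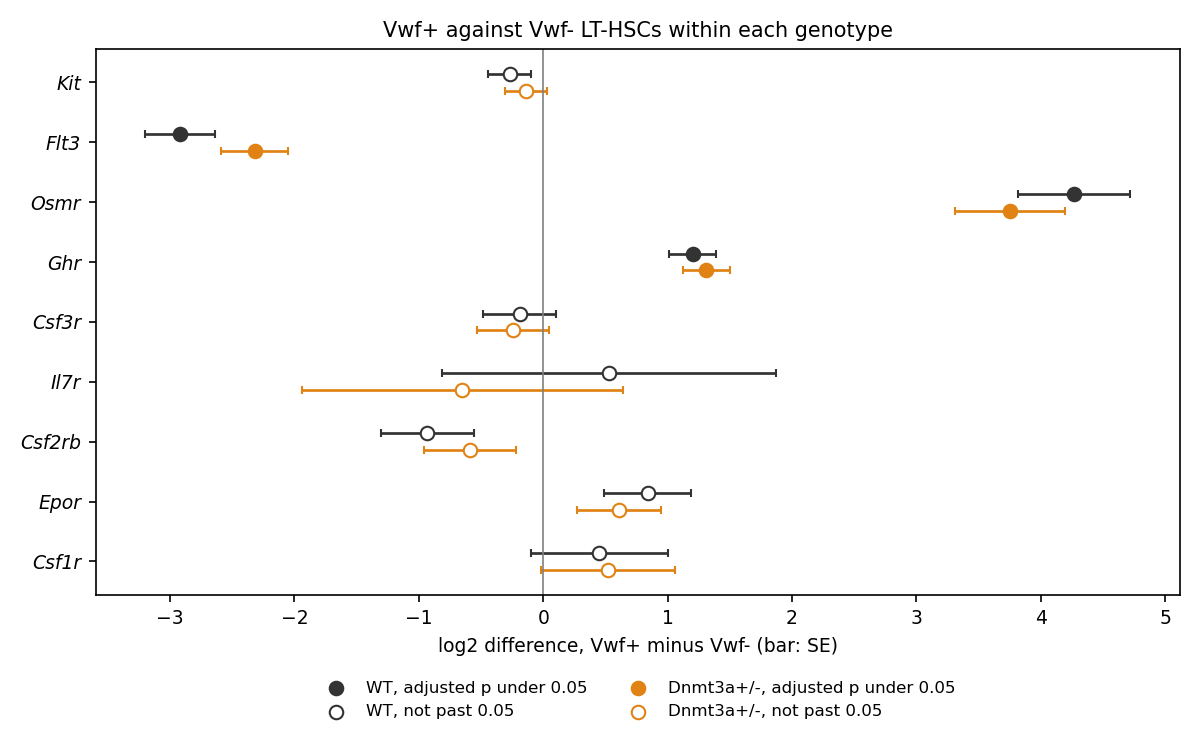
Log2 difference between Vwf+ and Vwf- LT-HSCs (horizontal axis) for each receptor, within WT and within Dnmt3a+/- cells; points are edgeR estimates from 2 against 2 libraries, bars are SE and filled points have an adjusted p under 0.05. Flt3, Osmr and Ghr are filled in both genotypes, with Flt3 at -2.92 and -2.32 and Osmr at 4.27 and 3.75, and the bars of Il7r are the widest.

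Within each genotype, Flt3, Osmr and Ghr again were the receptors that passed, 3 of 9 in WT and 3 of 9 in Dnmt3a+/- cells. The background was 1.97% of all tested genes in WT (1.48% higher and 0.496% lower) and 1.06% in Dnmt3a+/- cells (0.892% higher and 0.17% lower). Both contrasts use libraries of the average, so these counts are no separate evidence for it. Whether a receptor's difference between fractions depended on genotype was tested as an interaction. No receptor passed. The interaction was 0.61 ± 0.37 for Flt3, -0.52 ± 0.59 for Osmr and 0.11 ± 0.27 for Ghr on the log2 scale (edgeR adjusted p = 1 for each). The other 6 interactions ran from -1.18 ± 1.86 for Il7r to 0.34 ± 0.52 for Csf2rb. Of all tested genes, 0 (0%) passed in edgeR, 159 had an unadjusted p under 0.05 and 0 passed in DESeq2.

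The comparison of Dnmt3a+/- with WT cells asked whether receptor transcripts differ in stem cells heterozygous for Dnmt3a. None of the 9 receptors passed in edgeR, averaged over fractions or within either one. Averaged over fractions, 0 (0%) of all tested genes passed in edgeR, 516 had an unadjusted p under 0.05 and DESeq2 called 15, none of them a receptor. In Vwf+ cells these numbers were 0 (0%), 363 and 3, and in Vwf- cells 0 (0%), 211 and 2. The median log2 difference of the receptors averaged over fractions was 0.32, beside 0.01 for all tested genes. It was 0.15 without the male Vwf+ Dnmt3a+/- library, 0.18 without the male and 0.2 without the female Vwf- Dnmt3a+/- library, 0.19 without the female Vwf+ WT library and 0.18 by limma. Averaged over fractions, the estimates were -0.03 ± 0.12 for Kit, 0.03 ± 0.13 for Ghr, -0.03 ± 0.26 for Csf2rb and 0.16 ± 0.29 for Osmr. They were 0.32 ± 0.19 for Flt3, 0.36 ± 0.20 for Csf3r, 0.45 ± 0.24 for Epor, 0.80 ± 0.93 for Il7r and 0.88 ± 0.39 for Csf1r. The adjusted p was 1 for all 9 in edgeR.

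Before adjustment, 1 receptor had an edgeR p under 0.05 averaged over fractions, namely Csf1r. Csf1r did not overlap between genotypes in Vwf- cells but did in Vwf+ cells, where the difference was 0.91 ± 0.54 with and -0.23 without the female Dnmt3a+/- library. The 13 other monocyte and macrophage markers summed to 26.3 to 40.3 CPM in WT and 40.5 to 62.6 CPM in Dnmt3a+/- libraries, with a median log2 difference of 0.64 between genotypes, and 0 of the 13 passed. Their part in the Csf1r difference was not tested. In Vwf+ cells the 1 such receptor was Flt3, whose 2 heterozygous pools (6.80 and 9.59 CPM) lay above the 2 WT pools (0.62 ± 0.27). In Vwf- cells there was none. The CPM of Flt3 and Epor did not overlap between genotypes in Vwf+ cells, nor did those of Kit, Epor and Csf1r in Vwf- cells. Such a split of 2 against 2 libraries was found in 28.2% and 23.3% of all tested genes. Over all 8 libraries no receptor separated the genotypes, as 2.09% of tested genes did. Csf3r was higher in Dnmt3a+/- than in WT male libraries of both fractions, with 201 against 142 and 235 against 142 CPM. In female libraries it was 116 against 109 and 138 against 145 CPM. Of the 11 other neutrophil markers, 10 lay above 0 between genotypes averaged over fractions (median 0.88), and 0 passed. In the same order their summed level was 144 against 206 and 104 against 94.5 CPM in male libraries. In female libraries it was 250 against 191 and 133 against 77.2 CPM. The part of these markers in the Csf3r levels was not tested.

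**Figure D3:**
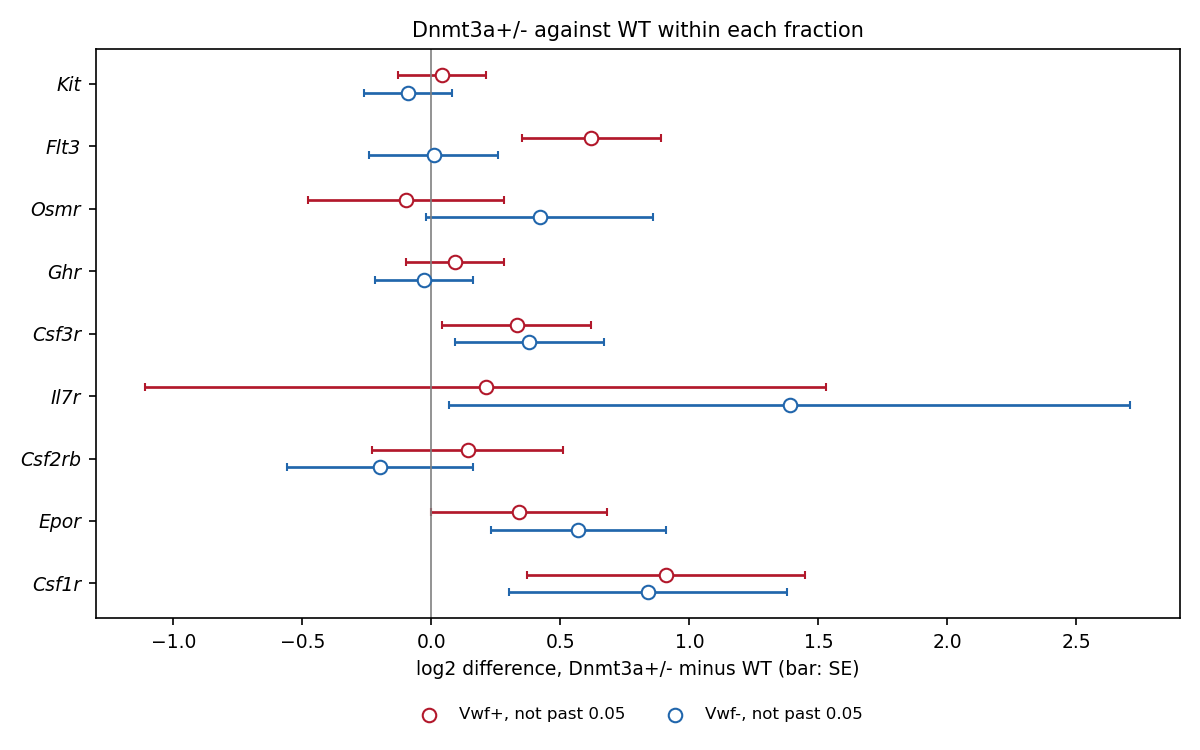
Log2 difference between Dnmt3a+/- and WT LT-HSCs (horizontal axis) for each receptor, within Vwf+ and within Vwf- cells; points are edgeR estimates from 2 against 2 libraries, bars are SE, and open points have an adjusted p of 0.05 or more. All 18 points are open, from -0.20 for Csf2rb to 1.39 for Il7r, both in Vwf- cells.

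Genes that act with these receptors were then described by list for the Vwf contrast averaged over genotype. Of 47 tested among 48 other cytokine and growth factor receptors, 4 rose and 3 fell in Vwf+ cells (5.44% of all tested genes passed), and the list median was 0.13. Kdr, the receptor of vascular endothelial growth factor, rose by 2.61 ± 0.21 on the log2 scale (edgeR adjusted p = 0.00011). The interleukin 10 receptor chain Il10ra rose by 2.21 ± 0.43, Il6st by 0.58 ± 0.13 and Il27ra, which also pairs with gp130, by 0.43 ± 0.10. The interleukin 18 receptor chain Il18r1 fell by 1.35 ± 0.28, Il12rb2, a chain of the interleukin 12 receptor, by 0.77 ± 0.19 and the interleukin 17 receptor Il17ra by 0.66 ± 0.11. Kdr stood at 32.3 to 48.5 CPM in Vwf+ and 4.02 to 8.77 CPM in Vwf- libraries, and Il18r1 at 2.56 to 5.17 and 7.78 to 13 CPM. None of these 7 genes overlapped between fractions, as was true of 13% of all tested genes. The 7 were named because they passed on these same libraries, so this adds no separate evidence. Kdr passed within each genotype (2.38 in WT and 2.85 in Dnmt3a+/- cells, edgeR adjusted p = 0.0036 and 0.0025), and Il17ra in WT (-0.76, edgeR adjusted p = 0.036). Kdr is also an endothelial marker, one of the 4 that rose in that list. The number of calls in this list was 14 with the replicate block (8 higher, 6 lower), 11 by DESeq2 and 3 by limma. Over all genes the calls moved too, from 866 to 2132, 1354 and 475 under the same settings. The number in this list was 3 without the female Vwf- WT library and 4 without the male Vwf- WT library or any 1 of the 4 Vwf+ libraries.

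Of 12 tested among 18 ligand genes, 0 passed in edgeR, 1 had an unadjusted p under 0.05 and 1, Osm, the gene of oncostatin M, passed with the replicate block (-0.93, edgeR adjusted p = 0.048) and by DESeq2 (-0.94, adjusted p = 0.046). The ligands Gh, Prl, Csf2, Il3, Epo and Thpo had at most 15 reads in any library and were not tested. Of 40 signal transducers, 1 rose and 0 fell (5.44% of all tested genes passed). The transducer that rose was Pik3r1, the regulatory subunit of phosphoinositide 3-kinase (0.69 ± 0.12, edgeR adjusted p = 0.0076), at 440 to 527 CPM in Vwf+ and 263 to 324 CPM in Vwf- libraries. No JAK or STAT gene passed. With the replicate block 3 transducers passed, and without the male Vwf+ WT library 0 did, without the male Vwf- Dnmt3a+/- library 2. The list median was -0.02 for transducers, and -0.08 to 0.06 leaving out 1 library. For ligands it was -0.06, but 0.19 by DESeq2, -0.77 without the male Vwf+ WT library and 0.4 without the male Vwf- Dnmt3a+/- library, so it has no settled sign.

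Of 32 feedback inhibitors, 1 rose and 1 fell (5.44% of all tested genes passed). Socs2, an inhibitor of growth hormone receptor signalling, rose by 0.95 ± 0.16 (edgeR adjusted p = 0.0073), from 9.07 to 16.5 CPM in Vwf- libraries to 16.8 to 28.6 CPM in Vwf+ libraries. Dusp6, a phosphatase of ERK kinases, fell by 1.02 ± 0.16 (edgeR adjusted p = 0.0043), with 22.3 to 32.4 CPM in Vwf+ and 42.9 to 61.3 CPM in Vwf- libraries. The list median was -0.04, and -0.07 to 0.03 leaving out 1 library. With the replicate block 9 of the 32 passed, 6 higher and 3 lower, and 5 passed by DESeq2. The number was 4 without either Vwf- Dnmt3a+/- library and 3 without the female Vwf- WT or the male Vwf+ Dnmt3a+/- library.

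Of 17 genes known to be induced through STAT5 or STAT3 in blood cells, 4 rose and 0 fell (5.44% of all tested genes passed), and the list median was 0.55. Those that rose were Junb, a transcription factor of the immediate-early response (1.16 ± 0.12, edgeR adjusted p = 0.00036), the pseudokinase gene Trib1 (1.14 ± 0.22, edgeR adjusted p = 0.013), Socs2, which is also in the list of feedback inhibitors, and the D-type cyclin gene Ccnd1 (0.55 ± 0.13, edgeR adjusted p = 0.04). Junb stood at 201 to 262 CPM in Vwf+ and 89.3 to 128 CPM in Vwf- libraries. It passed within WT (1.43, edgeR adjusted p = 0.0025) and within Dnmt3a+/- cells (0.89, edgeR adjusted p = 0.036), as Dusp6 did within WT (-1.12, edgeR adjusted p = 0.036). In this list 10 genes passed with the replicate block (9 higher and 1 lower) and 8 by DESeq2. The number was 2 without the female Vwf+ WT library and 7 without the female Vwf- Dnmt3a+/- library. No gene of these 5 lists passed between genotypes or in the interaction in edgeR.

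**Figure D4:**
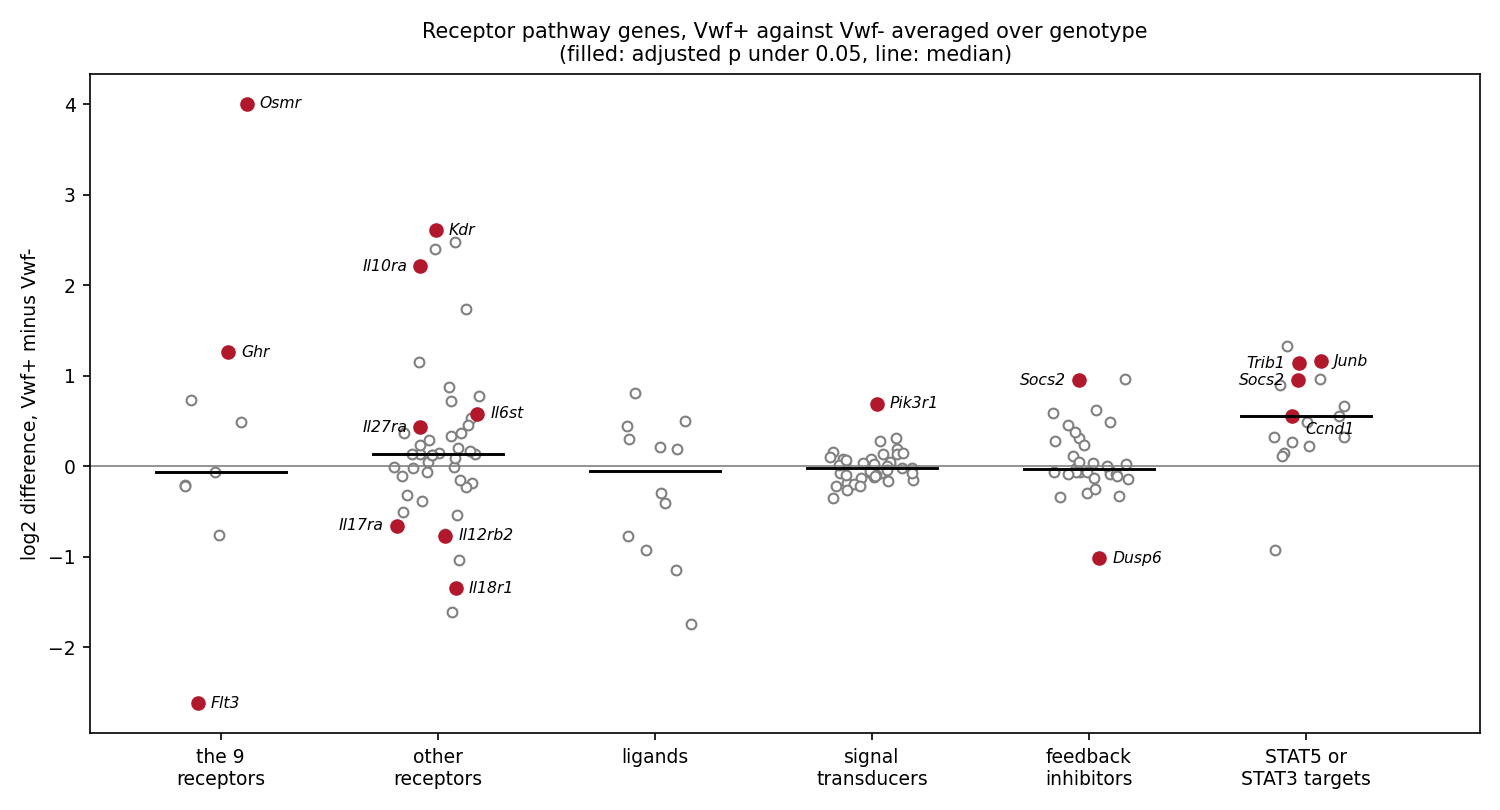
Log2 difference between Vwf+ and Vwf- cells averaged over genotype (vertical axis) for the 9 receptors and 5 lists of related genes; each circle is a gene, filled and named where the adjusted p is under 0.05, and lines are list medians. Il2rb is left out of the drawing because all Vwf- libraries were at 0, and the line at 0.55 for STAT5 or STAT3 targets is the highest.

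Finally, the genes whose levels across the 8 libraries were most like those of the 3 receptors that passed were named, by Pearson's r of log2 CPM among genes above a mean log2 CPM of 3. For Flt3 they were Fchsd2 (0.99), Arhgap30 (0.987) and Ptpre (0.985) among 10175 genes. For Osmr they were Pde9a (0.995), Slc4a3 (0.988) and Hoxb5 (0.987), the last an LT-HSC marker, among 10176 genes. For Ghr they were Srd5a1 (0.994), Ocln (0.993) and Epas1 (0.989) among 10175 genes. The median r over all genes compared was 0.04, -0.06 and -0.04, respectively. None of the 3 receptors overlapped between the Vwf+ and Vwf- fractions, so a gene that splits the fractions in the same way has a high r by that alone, and these values carry no p-value.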

How the data were processed

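Total RNA libraries from sorted LT-HSCs were prepared with a low-input total RNA kit, per the labels' protocols. The deposited raw count values are whole reads per gene symbol, and a second deposited table gives TPM. Per the submitters' processing notes, which give no versions, Trim Galore, STAR, featureCounts and DESeq2 were used with build mm10. The annotation, strand setting and treatment of reads with several positions are not given in the sources used here. TPM were each the count over 1 fixed length per gene, scaled per library (checked on 11349 genes, largest relative spread 8.9e-16).

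Counts were tested in R 4.3.3 with edgeR 4.0.16: filterByExpr (minimum count 10), TMM scaling, 4 group means over 8 libraries, quasi-likelihood F-test with 4 residual degrees of freedom, and Benjamini-Hochberg adjustment over 15917 genes with a threshold of 0.05. SE is the size of the log2 difference divided by the square root of F. TPM were tested with limma 3.58.1 on log2(TPM + 1), for genes of mean TPM above 1, as an alternative. Other alternatives were DESeq2 1.42.0, RLE size factors, no count filter, a replicate block, the libraries of a contrast alone, and leaving out each library. The script was tested on simulated data.

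Each replicate number has 1 sex in the labels. Differences between replicates correlated across genes in all 6 pairs of groups (r = 0.13, 0.2, 0.23, 0.16, 0.3 and 0.24), also between groups of different genotype. The main fit did not pair libraries by number, and the replicate block was an alternative. The labels do not say whether Vwf+ and Vwf- libraries of the same genotype and number came from the same mice. The receptors, pathway and marker lists were chosen with earlier results of these data known. Named were all 9 receptors, Csf2rb2, list genes past the threshold, the 3 most similar genes, Vwf and Dnmt3a. Some genes that this rule names are not reported here, although list counts and sums include them. Coordinates are GENCODE M21 on GRCm38, and promoter sequences are RefSeq GRCm38.p6. A count of 3 was taken as the floor, and it covers counting error only.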

Additional observations from a re-analysis of the deposited data

How the results depend on the processing

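Of 847 values of the receptors under another setting, 780 kept their direction and their side of the threshold, 8 came to pass, 7 no longer passed and 52 changed sign, none of the last with a call. Flt3 and Osmr passed in all 3 Vwf comparisons under every setting tried, and Ghr passed averaged over genotype under every setting. Outside leave-one-out fits, the sign changed for Il7r between fractions in WT with the replicate block (-0.03) and, with limma on TPM, for Kit between genotypes averaged over fractions (0.03), Osmr between genotypes in Vwf+ (0.03), Flt3 between genotypes in Vwf- (-0.02) and the Csf3r interaction (0.13).

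Leaving out 1 library changed the sign of some uncalled differences, over these ranges. Between fractions averaged over genotype they were -1.59 to 0.68 for Il7r and -0.08 to 0.8 for Csf1r, and in WT -2.55 to 1.42 for Il7r. In Dnmt3a+/- cells they were -0.69 to 0.2 for Csf3r, -1.37 to 0.85 for Il7r, -1.08 to 0.01 for Csf2rb and -0.62 to 1.15 for Csf1r. Between genotypes averaged over fractions they were -0.07 to 0 for Kit, -0.18 to 0.37 for Osmr, -0.06 to 0.1 for Ghr and -0.33 to 0.18 for Csf2rb. In Vwf+ cells they were -0.01 to 0.09 for Kit, -0.46 to 0.24 for Osmr, -0.08 to 0.24 for Ghr, -0.12 to 0.68 for Csf3r, -0.69 to 3.29 for Il7r, -0.35 to 0.5 for Csf2rb and -0.23 to 1.54 for Csf1r. In Vwf- cells they were -0.22 to 0.19 for Flt3, -0.26 to 0.84 for Osmr, -0.11 to 0.02 for Ghr, -0.07 to 0.7 for Csf3r, -0.12 to 2.1 for Il7r and -0.81 to 0.21 for Csf2rb. For the interaction they were -0.95 to 0.17 for Osmr, -0.05 to 0.27 for Ghr, -0.5 to 0.4 for Csf3r, -2.07 to 1.9 for Il7r, -0.14 to 0.96 for Csf2rb, -0.75 to 0.16 for Epor and -1.06 to 0.7 for Csf1r.

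The number of genes called moved more. Averaged over genotype, 866 became 2132 with the replicate block, 1649 without the count filter, 1354 by DESeq2, 475 by limma and 472 to 1387 leaving out 1 library. In WT, 314 became 1329, 1059, 727, 81 and 64 to 639 in the same order, and 747 with the libraries of the contrast alone. In Dnmt3a+/- cells, 169 became 855, 633, 476, 79 and 75 to 291, and 42 alone. Between genotypes, 0 became 30, 61, 15, 1 and 0 to 3 averaged over fractions. In Vwf+ cells 0 became 6 with the replicate block, 53 without the count filter and 3 by DESeq2, and in Vwf- cells 2, 27 and 2. For the interaction 0 became 24 without the count filter. The cause was not tested. Pairing by replicate number changed no call of the 9 receptors other than those of Csf2rb and Epor given with their levels. Depth limits Il7r, with 1 to 39 reads.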

Other observations

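Osm, which encodes the ligand of the Osmr receptor and was singled out after its values were seen, was measured at 1.53 CPM in the male and 1.12 CPM in the female Vwf+ WT library. The heterozygous Vwf+ pair had 3.86 and 3.62 CPM. Among Vwf- pools the WT pair had 4 and 4.08 CPM and the heterozygous pair 4.42 and 4.5 CPM. The 2 Vwf+ WT libraries thus lay below the other 6. The log2 difference between Vwf+ and Vwf- cells was -1.61 ± 0.41 in WT (edgeR adjusted p = 0.091, and 0.027 with the replicate block; DESeq2 adjusted p = 0.017) and -0.25 ± 0.38 in Dnmt3a+/- cells (edgeR adjusted p = 0.98). The interaction was 1.35 ± 0.56 and did not pass (edgeR adjusted p = 1).

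Il2rb, a chain of the receptors for interleukin 2 and interleukin 15, also singled out after its values were seen, had 1 and 28 reads in the male and female Vwf+ WT libraries and 6 and 46 in the Vwf+ Dnmt3a+/- libraries. It had 0 reads in all 4 Vwf- libraries, where the floor of 3 counts equals 0.0716 to 0.106 CPM. It did not pass averaged over genotype (edgeR adjusted p = 0.053), but it did with the replicate block (edgeR adjusted p = 0.0049), without the count filter (edgeR adjusted p = 8.5e-05), by DESeq2 (adjusted p = 0.00018) and without the male Vwf+ WT library (edgeR adjusted p = 0.038). Without the female Vwf+ WT library the edgeR adjusted p was 0.31. The fitted difference depends on the prior count and is not given. In both genotypes the female Vwf+ library held most of the reads.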
